A study of Homo sapiens with 4 samples.

Results

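TCF7 knockdown was compared with a scramble hairpin in K562/G01 cells that were both exposed to imatinib, which sets 1 library of knockdown cells against 1 library of control cells. These are 2 of the 4 libraries of the study, and the comparison was made over the 13296 of 28482 genes in the count table that reached a CPM (reads of a gene scaled to the size of the library) of 1 in at least 2 of the 4 libraries. K562 is an established chronic myeloid leukemia line of erythroid character that carries the BCR-ABL1 fusion kinase, and K562/G01 is a derivative that resists imatinib, the inhibitor of that kinase. All cells were K562/G01 cells that stably carried a lentivirus, either with a scramble short hairpin RNA or with a hairpin against TCF7, and the treated cultures received imatinib at 1 µM for 48 h. The other pair of libraries, scramble and knockdown without imatinib, is given beside the treated pair and shares no library with it. The labels do not say whether a line is 1 clone or a pool, how many hairpins were used, or whether the cultures were infected and treated separately.

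TCF7 encodes TCF-1, a member of the TCF/LEF family of DNA-binding proteins. Without a Wnt signal a destruction complex of APC, AXIN and GSK3 proteins marks beta-catenin for degradation; with the signal beta-catenin enters the nucleus, binds TCF/LEF proteins and turns repressed target genes on. In blood formation TCF-1 is best known for its part in the T-lineage and in the self-renewal of progenitors, and Wnt signalling has been studied in chronic myeloid leukemia as a route by which stem cells persist under kinase inhibitors.

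The libraries held 34095585 counts for scramble with imatinib and 31744915 for knockdown with imatinib, beside 33146606 and 30634832 in the untreated scramble and knockdown libraries. All 11 erythroid markers of K562 passed the filter, with a summed level of 3503 CPM in the treated scramble library and 3442 CPM in the treated knockdown library. B cell markers summed to 0.0871 and 0.0948 CPM and granulocyte progenitor markers to 1.19 and 0.379 CPM in the same order, and monocyte markers to 39.2 and 42.4 CPM, nearly all from LYZ. Of the T cell markers CD3D (476 and 475 counts) and CD3G (167 and 86) passed, and CD3E had 0 and 2 counts. Of the epithelial markers KRT8, KRT18 and EPCAM passed and CDH1 had 1 and 0 counts, with a sum of 449 and 493 CPM. Fibroblast markers summed to 0.523 and 1.83 CPM, and the mast cell, basophil and eosinophil markers to 48.8 and 70.9 CPM, described below.

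A ratio is the log2 of normalised CPM in knockdown over scramble, with a prior count of 2, so a positive value means higher in the knockdown library. Because each group is 1 library, no ratio has a replicate check, no test was made, and the 95% interval printed beside a ratio covers counting error only. The interval treats reads as independent molecules, which they are not, so it can be too narrow even for that error. Under imatinib 175 of 13296 genes were at least 2-fold higher with knockdown (1.32%) and 201 were at least 2-fold lower (1.51%), 2.83% in all. At 1.5-fold the counts were 700 higher (5.26%) and 623 lower (4.69%), 9.95% in all. Of all ratios 7104 were above 0 and 6192 below. These values over all genes are the background for the list counts below. Most of the 2-fold genes were of low level. Among the 10139 genes whose mean over the treated libraries was at least 5 CPM, 30 were 2-fold higher and 30 were 2-fold lower (0.296% each, 0.592% together), and the middle 50% of their ratios ran from -0.11 to 0.17 around a median of 0.02. The whole counting interval lay past 2-fold for 48 of the 175 higher and 66 of the 201 lower genes. The interval excluded 0 for 60.8% of the genes at 5 CPM or more, so it is narrow beside the spread of ratios across genes, whose SD was 0.27.

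The targeted gene was lower in both knockdown libraries. TCF7 (chromosome 5, 134114711 to 134151865, plus strand, GRCh38) had 367 counts in scramble cells and 117 in knockdown cells under imatinib, beside 339 and 78 without it. In normalised terms that is 10.7 and 3.70 CPM under imatinib, or 34.7% of the scramble level left, with a log2 ratio of -1.51 (-1.84 to -1.22). The ratio without imatinib was -1.97 (-2.37 to -1.64). The 2 scramble libraries lay above both knockdown libraries with no overlap of their counting intervals, as the plot of levels by library shows.

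**Figure D1:**
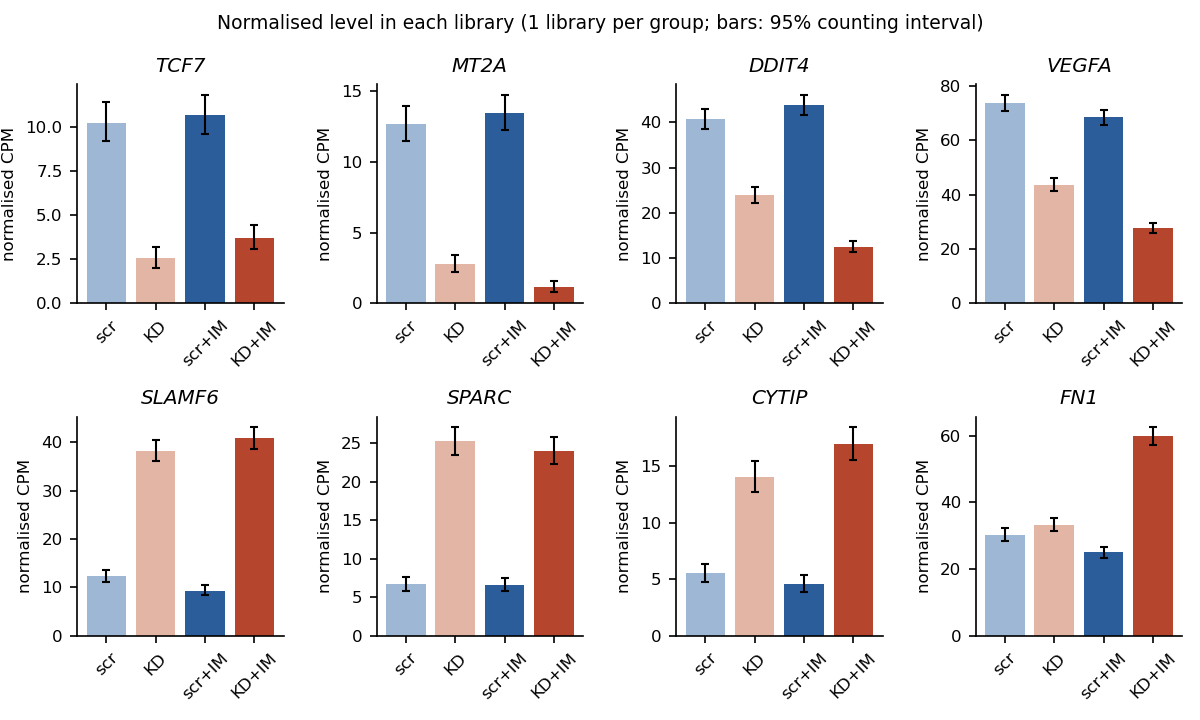
Normalised CPM (y axis, from 0) of 8 genes in the 4 libraries (x axis; scr, scramble; KD, TCF7 knockdown; IM, imatinib), with 95% exact Poisson counting intervals and 1 library per bar. TCF7, MT2A, DDIT4 and VEGFA were lower and SLAMF6, SPARC and CYTIP higher in both knockdown libraries, while FN1 stood out only in the knockdown library with imatinib, at 59.8 CPM.

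Of the other TCF/LEF factors, TCF7L2 had 570 and 790 counts under imatinib, a ratio of 0.59 (0.44 to 0.75), and LEF1 had 809 and 552, a ratio of -0.43 (-0.59 to -0.27). TCF7L1 did not pass the filter, with 6 and 16 counts. In the list of TCF/LEF factors and cofactors 11 of 14 genes passed. Of these 1 was 2-fold lower (TCF7 itself) and 0 were 2-fold higher, beside 1.51% and 1.32% of all genes. TCF7L2 was the 1 member at 1.5-fold or more higher. The median was 0.40, beside 0.02 over all genes that passed. The cofactors were above 0 by small amounts, with ratios of 0.44 for BCL9 and 0.47 for BCL9L, which tie beta-catenin to the transcription machinery, and 0.40 for TLE3, 0.46 for TLE4 and 0.42 for AES, which belong to the Groucho family of corepressors. Their transcripts are rich in G and C (median of the list 54.9%), and with the trend over GC content described further on removed the list's median was 0.31. CTNNB1, which encodes beta-catenin, stayed near 0 at -0.08.

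In the destruction complex, 1 of 15 members stood far from 0. APC2, a paralogue of APC, had 222 counts in scramble and 10 in knockdown cells under imatinib, beside 137 and 16 without it. That is 6.45 and 0.316 CPM under imatinib and a ratio of -4.11 (-5.43 to -3.44), 17.2-fold lower, larger in size than the ratio of -2.84 without the drug. APC2 reached 1 CPM only in the scramble libraries, so it passed the filter through the side where it was high. APC itself had a ratio of -0.04, AXIN1 -0.20, GSK3B -0.05 and GSK3A 0.28, and the list's median was 0.00. Among 11 Wnt target genes that passed, 1 was 2-fold lower, VEGFA, and 0 were 2-fold higher, beside 1.51% and 1.32% of all genes. VEGFA is also in the hypoxia list below. MYC had a ratio of 0.05, CCND1 0.15, AXIN2 0.18 and BIRC5 0.20, and the list's median was 0.15. Wnt receptors and ligand-handling proteins had 13 members measured and a median of -0.02. The receptor FZD2 had a ratio of 0.87 and KREMEN1, which binds the Wnt inhibitor DKK1, had 0.65. These were the 2 members of that list at 1.5-fold or more, beside 9.95% of all genes in either direction.

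The TCF/LEF motif was searched in promoters, taken as the 250 bases upstream of each gene's RefSeq start (GRCh38.p14), as CTTTGAT or CTTTGAA on either strand. It was present in 3.41% of 8939 promoters of genes that passed and 6.03% of all 27305 promoters. TRANK1 held it among 15 promoters found for the 20 highest genes listed below, and 0 of 18 promoters found for the 20 lowest held it. A match is a description of the letters and is not shown to be a bound site.

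The 20 protein-coding genes highest under imatinib, of those averaging at least 5 CPM, ran from SLAMF6 at 2.13 to ROGDI at 1.12, with EPX next outside them at 1.11, and the 20 lowest ran from MT2A at -3.50 to STARD9 at -1.11, with NDRG1 next outside at -1.10. The whole counting interval lay past 2-fold for 16 of the highest and 14 of the lowest. All 20 of the highest and all 20 of the lowest had the same sign in the pair without imatinib, where 11 and 12 of them also passed 2-fold (background in that pair, 0.925% of 13296 genes higher, 1.75% lower and 2.68% in all). The same-sign counts have no such background here. Over 10128 genes averaging at least 5 CPM under imatinib, the treated and untreated ratios had a Pearson correlation of 0.52.

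**Figure D2:**
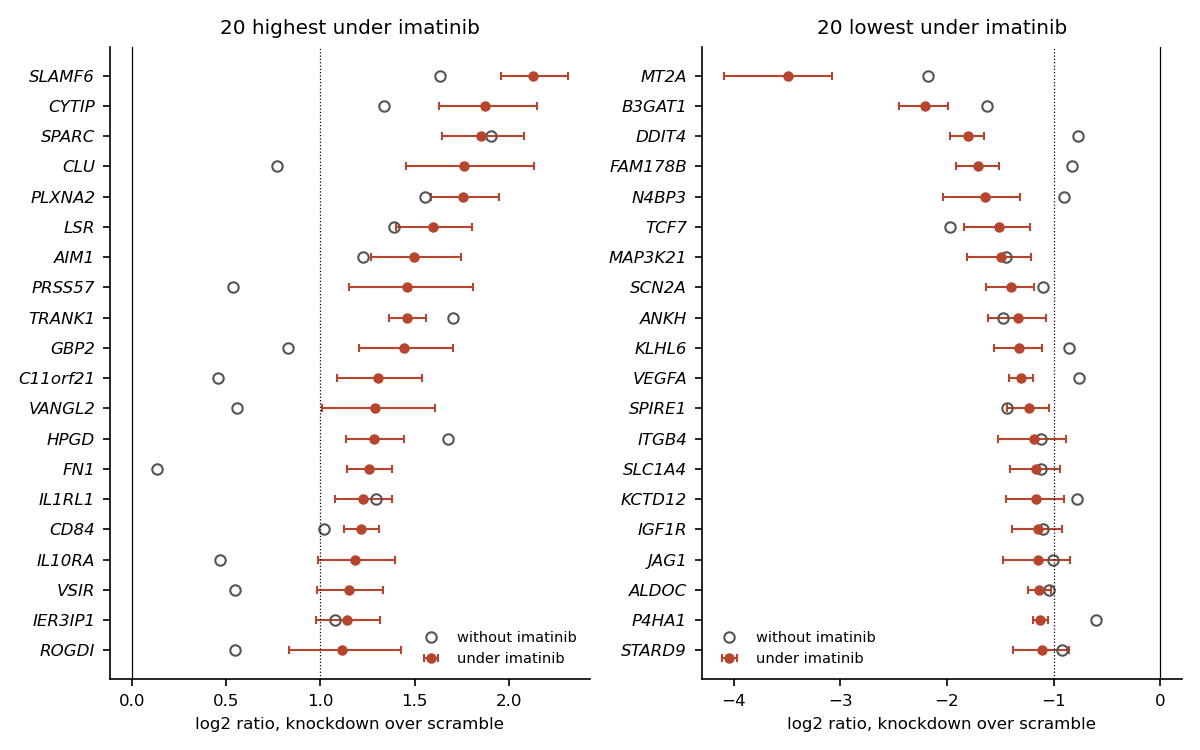
Log2 ratio of knockdown over scramble (x axis) for the 20 highest (left) and 20 lowest (right) protein-coding genes under imatinib that averaged at least 5 CPM. Filled points with 95% counting intervals are the treated pair and open circles the untreated pair; the dotted line marks 2-fold. FN1 has the open circle nearest 0, at 0.14, and MT2A the lowest filled point, at -3.50.

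Metallothioneins were the group with the largest ratios. These small cysteine-rich proteins bind zinc and copper, and their genes lie side by side on chromosome 16. MT2A (56608199 to 56609497) had 464 counts in scramble and 36 in knockdown cells under imatinib, beside 421 and 84 without it, so 13.5 and 1.14 CPM under the drug. The ratio was -3.50 (-4.10 to -3.07), or 11.3-fold lower, and without imatinib it was -2.18 (-2.56 to -1.86). MT1G had 112 and 0 counts under imatinib, beside 97 and 16 without it. The counting interval of its log2 ratio under imatinib had an upper end of -4.78. A count of 0 leaves the lower end without a limit. MT1X had 51 and 6 counts under imatinib (ratio -2.62, -4.48 to -1.74) beside 71 and 22. Below the filter, MT1F had 36 and 0 counts under imatinib and 28 and 1 without, and MT1E had 7 and 0 under and 17 and 1 without. MT1A, MT1H and MT3 had at most 8 counts in any library. These genes are near-identical copies, so reads may be shared between them and the split among them is uncertain. MTF1, the zinc-sensing factor that drives them, had 1134 and 1130 counts under imatinib, a ratio of 0.12 (-0.00 to 0.24). The zinc transporters of the same list ran from -0.28 for SLC30A1, itself a target of MTF1, to 0.42 for SLC39A1. Of 11 members that passed, 3 were 2-fold lower (MT1G, MT2A and MT1X) and 0 were 2-fold higher, beside 1.51% and 1.32% of all genes. MT1G and MT1X reached 1 CPM only in the scramble libraries, so they passed the filter through the side where they were high. The list's median was -0.23.

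The promoters of MT2A and MT1X are shown because these genes were lower together and their promoters hold repeated matches to the metal response element, the motif that MTF1 recognises. They are the 250 bases upstream of the RefSeq start on GRCh38.p14, written 5′ to 3′ on the gene's strand, with matches to TGCACNC or TGCGCNC on either strand in capitals.

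MT2A (chr16:56608334-56608583, plus strand): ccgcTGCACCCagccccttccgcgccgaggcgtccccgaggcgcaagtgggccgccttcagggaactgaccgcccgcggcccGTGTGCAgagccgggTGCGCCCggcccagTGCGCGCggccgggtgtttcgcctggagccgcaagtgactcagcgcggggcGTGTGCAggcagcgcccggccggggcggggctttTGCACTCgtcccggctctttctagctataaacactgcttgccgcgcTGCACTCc
MT1X (chr16:56682220-56682469, plus strand): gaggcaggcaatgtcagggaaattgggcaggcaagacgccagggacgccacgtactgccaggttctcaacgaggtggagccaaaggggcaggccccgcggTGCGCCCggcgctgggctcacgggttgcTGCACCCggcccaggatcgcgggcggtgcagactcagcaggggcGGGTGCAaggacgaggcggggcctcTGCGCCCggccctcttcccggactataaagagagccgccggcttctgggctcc

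MT2A held 7 such sites between 246 and 8 bases upstream of the start, and MT1X held 4 between 150 and 53 bases upstream. The motif is short and present in 33.8% of the promoters of genes that passed (24.7% of all promoters), in 7 of 18 promoters of the 20 lowest genes and in 4 of 15 of the 20 highest.

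Genes of the response to low oxygen were the next group. In cells with little oxygen HIF-1 binds short elements, often with the core ACGTG, and raises genes of glycolysis, angiogenesis and collagen modification. Outside glycolysis, 28 of 32 listed genes passed. Of these 6 were 2-fold lower and 1 was 2-fold higher, against a background of 1.51% and 1.32%. At 1.5-fold 10 were lower and 2 higher, against a background of 4.69% and 5.26%. The median was -0.23 beside 0.02 over all genes, and -0.24 in the pair without imatinib. DDIT4, an inhibitor of mTORC1 that stress and HIF-1 induce, had 43.8 CPM in scramble and 12.5 CPM in knockdown cells under imatinib, beside 40.7 and 23.8 without it. Its ratio was -1.81 (-1.98 to -1.65) under imatinib and -0.77 (-0.90 to -0.64) without, so the knockdown library with imatinib was the lowest of the 4. VEGFA, the endothelial growth factor, was also lowest in the knockdown library with imatinib, with 68.5 and 27.7 CPM under imatinib (ratio -1.31, -1.42 to -1.19) and 73.8 and 43.6 CPM without (-0.76). P4HA1, a collagen prolyl hydroxylase subunit, had 156 and 71.7 CPM under imatinib (-1.12, -1.20 to -1.05) and 199 and 132 CPM without (-0.60). NDRG1 had 1543 and 660 counts under imatinib, a ratio of -1.10, smaller in size than its -1.35 without. PPFIA4 (99 and 10 counts, -2.96) and STC2, the secreted stanniocalcin 2 (161 and 62 counts, -1.23), were of lower level. PPFIA4 reached 1 CPM only in the scramble libraries, so it passed the filter through the side where it was high. The prolyl hydroxylases that mark HIF for degradation and are themselves induced by it, EGLN3 and EGLN1, had ratios of -0.76 and -0.68, and the mitophagy receptor BNIP3 had -0.79.

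Not all of the list went that way. CA12, a carbonic anhydrase, had 32 and 71 counts and a ratio of 1.22. EPAS1, which encodes HIF-2 alpha, had 0.61, HIF1A 0.27, and ERO1A and BNIP3L 0.03 and -0.01. The transcripts of HIF1A and EPAS1 were above 0 while those of DDIT4, VEGFA and P4HA1 were below.

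Glycolysis and the pentose phosphate pathway had 32 of 33 genes measured, of which 22 were below 0, with a median of -0.15. Of all genes that passed, 6192 of 13296 were below 0, with a median of 0.02. At 1.5-fold 4 were lower and 0 higher, beside 4.69% and 5.26% of all genes. ALDOC, an aldolase, had 70.5 CPM in scramble and 32.1 CPM in knockdown cells under imatinib, beside 76.2 and 37.1 without it, and its ratio of -1.13 (-1.24 to -1.03) made it the 1 member at 2-fold. PDK1, a kinase that inhibits pyruvate dehydrogenase, had a ratio of -0.74, LDHA, lactate dehydrogenase A, -0.62 with 31927 and 19129 counts, and PFKFB4 -0.62. Members with a ratio above 0 included PKM at 0.43 and the pentose phosphate enzyme PGLS at 0.51, whose ratios without imatinib were -0.07 and -0.19. The transcript of PGLS is of high GC content, at 61.6%.

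The core ACGTG, searched on both strands with overlapping matches merged into 1 site, was present in 13 of 23 promoters found for the hypoxia list and 9 of 28 for the glycolysis list. Its share was 23.9% among the 8939 promoters of genes that passed and 18.7% among all 27305. Other forms of the core were not searched. The hypoxia list was made of genes of the low-oxygen response, so a raised share there follows from the choice of list. The 13 hold genes that were not lower as well, such as ERO1A. It was present in 7 of 18 promoters of the 20 lowest genes, those of ALDOC, DDIT4, IGF1R, JAG1, P4HA1, SCN2A and SLC1A4, and in 2 of 15 of the 20 highest. The promoters of 4 lower genes are printed to show where the core lies, as before, with the matches in capitals.

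DDIT4 (chr10:72273674-72273923, plus strand): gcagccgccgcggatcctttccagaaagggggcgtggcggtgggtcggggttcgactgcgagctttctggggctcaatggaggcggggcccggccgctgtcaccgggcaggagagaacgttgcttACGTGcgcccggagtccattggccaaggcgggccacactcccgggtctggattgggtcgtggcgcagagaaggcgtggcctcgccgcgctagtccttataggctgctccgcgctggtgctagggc
P4HA1 (chr10:73096867-73097116, minus strand): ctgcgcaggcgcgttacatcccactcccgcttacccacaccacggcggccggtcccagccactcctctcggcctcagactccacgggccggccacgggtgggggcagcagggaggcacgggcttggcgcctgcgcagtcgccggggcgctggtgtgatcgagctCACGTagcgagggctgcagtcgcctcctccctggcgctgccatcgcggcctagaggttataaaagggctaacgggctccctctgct
ALDOC (chr17:28576896-28577145, minus strand): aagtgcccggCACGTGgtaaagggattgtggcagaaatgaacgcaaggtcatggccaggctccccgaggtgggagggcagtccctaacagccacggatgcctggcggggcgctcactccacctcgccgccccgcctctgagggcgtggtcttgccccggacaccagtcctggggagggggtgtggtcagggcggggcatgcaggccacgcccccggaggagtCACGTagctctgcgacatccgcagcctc
LDHA (chr11:18394313-18394562, plus strand): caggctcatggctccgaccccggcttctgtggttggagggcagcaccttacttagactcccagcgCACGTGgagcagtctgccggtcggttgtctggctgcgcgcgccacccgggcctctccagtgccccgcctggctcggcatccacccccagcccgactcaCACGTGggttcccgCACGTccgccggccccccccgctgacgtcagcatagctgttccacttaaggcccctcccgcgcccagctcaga

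DDIT4 held 1 site at 125 bases upstream, P4HA1 1 site at 86, ALDOC 2 sites between 240 and 28, and LDHA 3 sites between 185 and 73 bases upstream. A motif match in these windows was not tested for binding.

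Genes of amino acid supply and of the integrated stress response, in which ATF4 raises amino acid uptake and synthesis, contained a smaller set of lower members. Of 19 stress response genes measured, 3 were 2-fold lower (DDIT4, ATF3 and STC2), beside 1.51% of all genes, and 0 were 1.5-fold higher, beside 5.26%. DDIT4 and STC2 are also in the hypoxia list and were counted among its lower genes above. The median was -0.10 under imatinib and -0.33 without. ATF3, a stress-induced repressor, had 93 and 34 counts under imatinib (-1.28) and 114 and 34 without (-1.57). ATF4 itself had -0.10 and DDIT3 0.04. The pseudokinase TRIB3 had -0.43. Beside 4.69% and 5.26% of all genes, 4 of 20 genes of serine, one-carbon and asparagine synthesis were 1.5-fold lower and 0 higher. They were ALDH1L2, a mitochondrial folate enzyme (239 and 78 counts, -1.47, -1.88 to -1.12), ASNS, asparagine synthetase (2270 and 1125 counts, -0.89), PSAT1 of the serine pathway (2012 and 1027 counts, -0.85) and MTHFD1L (-0.80). PHGDH, the entry enzyme of serine synthesis, had 7257 and 5365 counts under imatinib and 7869 and 3022 without, so its ratio of -0.31 was smaller in size than the -1.26 without the drug. Among 18 amino acid transporters SLC1A4, a carrier of neutral amino acids, was 2-fold lower (-1.17) and SLC7A5, the large neutral amino acid carrier, had 5720 and 2826 counts (-0.89). Of the 20 cytosolic tRNA synthetases 16 were below 0, none by 1.5-fold, with CARS lowest at -0.37. Of all genes that passed, 6192 of 13296 were below 0 and 4.69% were 1.5-fold lower.

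Surface receptors of blood cells were among the 20 highest genes. SLAMF6, a receptor of the SLAM family on lymphoid cells, had 9.32 CPM in scramble and 40.9 CPM in knockdown cells under imatinib, beside 12.3 and 38.3 without it. The ratio was 2.13 (1.96 to 2.31), 4.36-fold, and both knockdown libraries lay above both scramble libraries. CD84, another SLAM receptor, had 39.2 and 91.2 CPM under imatinib (1.22, 1.12 to 1.31) and 41.9 and 85.0 CPM without. The genes lie next to each other on chromosome 1, SLAMF6 at 160485030 to 160523262 and CD84 at 160541095 to 160579516, both on the minus strand. VANGL2, a planar polarity protein of non-canonical Wnt signalling, is the next gene that passed on the other side of SLAMF6, at 160400586 to 160428678 on the plus strand, and was among the 20 highest too (3.92 and 9.67 CPM, ratio 1.29, 1.01 to 1.61). The measured genes that flank these 3 were NCSTN, with a ratio of 0.28, and F11R, with 0.13. This neighbourhood was singled out after its values were seen.

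CYTIP, which regulates adhesion of activated leukocytes, had 158 and 536 counts under imatinib (1.87, 1.63 to 2.15) and 183 and 427 without (1.33). IL10RA, the interleukin-10 receptor chain, had 8.56 and 19.5 CPM (1.18), and VSIR, an immune checkpoint ligand, 11.6 and 25.8 CPM (1.15), with ratios of 0.47 and 0.55 without imatinib. In the list of lymphoid receptors and signalling genes 10 of 26 passed, with a median of 0.26. Of these 3 were 2-fold higher (SLAMF6, CYTIP and CD84) and 0 were 2-fold lower, beside 1.32% and 1.51% of all genes. CD3G and IL2RG were lower, at -0.82 and -0.80. The list therefore had no common direction.

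Genes of mast cells, basophils and eosinophils had 12 of 23 members measured, with a median of 0.36 under imatinib and 0.72 without. Under imatinib 4 were 2-fold higher and 0 lower, beside 1.32% and 1.51% of all genes. HDC, which makes histamine, had 55 and 148 counts under imatinib and 57 and 181 without (1.52 and 1.75). HPGD, which degrades prostaglandins, had 507 and 1136 counts under imatinib and 525 and 1546 without (1.28 and 1.68). IL1RL1, the receptor of interleukin-33, had 529 and 1139 under and 506 and 1144 without (1.23 and 1.30). EPX, eosinophil peroxidase, had 558 and 1111 under and 498 and 1601 without (1.11 and 1.80). MS4A2, a chain of the high-affinity IgE receptor, had a ratio of -0.40, and PRG3 -0.84, both opposite to the 4 above. The defining mast cell gene CPA3 had 0 and 4 counts and FCER1A 6 and 0 counts. The treated ratio was the higher in 2 of these 12 genes, beside 52.5% of all genes that passed. In bulk libraries more cells of a type and more RNA per cell cannot be told apart. ITGAM, the integrin alpha M of myeloid cells, had 45 and 102 counts (1.26). It was the 1 of 11 granulocyte and monocyte genes at 2-fold, beside 2.83% of all genes.

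Matrix and adhesion genes contained members at both ends. SPARC, a secreted matrix glycoprotein, had 6.62 and 24.0 CPM under imatinib (1.85, 1.64 to 2.08) and 6.70 and 25.2 CPM without (1.90). FN1, fibronectin, had 861 and 1893 counts under imatinib (1.26, 1.14 to 1.38) but 1004 and 1014 without (0.14, 0.01 to 0.26), so it was high in the knockdown library with imatinib alone. ITGB3, the beta-3 integrin of platelets, had 33 and 72 counts under imatinib (1.20) and 48 and 42 without (-0.07). ITGB4, the beta-4 integrin of epithelia, went the other way in both pairs, with ratios of -1.18 and -1.11. Of 19 members of this list 3 were 2-fold higher and 1 was 2-fold lower, beside 1.32% and 1.51% of all genes, and the median was -0.04. Fibroblasts express many of these genes; COL1A1 had 7 and 32 counts and DCN 5 and 24 in the treated libraries, COL1A2 2 and 1 and LUM 4 and 1, and their part in the matrix values was not tested. The semaphorin receptor PLXNA2 had 9.73 and 33.0 CPM (1.76, 1.59 to 1.95), while the ligand SEMA3F had 110 and 40 counts (-1.30), and of 14 plexins, semaphorins and neuropilins 7 were above and 7 below 0. CLU, a secreted chaperone, had 2.82 and 9.70 CPM under imatinib (1.76) and 2.87 and 4.93 without (0.77), and LSR, a lipoprotein receptor of cell junctions, 8.10 and 24.6 CPM (1.59).

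The remaining lowest genes were of mixed function. B3GAT1, the glucuronyltransferase that builds the CD57 epitope, had 27.6 and 5.94 CPM under imatinib (-2.20, -2.45 to -1.99) and 22.5 and 7.26 without (-1.62). SPIRE1, an actin nucleator, had 21.6 and 9.14 CPM (-1.23). KLHL6, a ubiquitin ligase adaptor of B cells, had 17.9 and 7.11 CPM (-1.33), and JAG1, a Notch ligand, 8.45 and 3.79 (-1.14). IGF1R, a growth factor receptor tyrosine kinase, had 15.0 and 6.73 CPM under imatinib and 15.9 and 7.39 without (-1.14 and -1.10). It was the 1 of 17 receptor tyrosine kinases measured at 2-fold, beside 2.83% of all genes. AXL, a receptor tyrosine kinase linked to inhibitor resistance in other settings, went the other way with 397 and 640 counts (0.81), and KIT, which imatinib also inhibits, had 156 and 105 counts (-0.44, -0.82 to -0.08).

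Genes that bear on survival and on the drug target were mostly near 0. TNFSF10, which encodes the death ligand TRAIL, had 54 and 232 counts under imatinib and 60 and 252 without, a ratio of 2.18 (1.79 to 2.68) and 2.16. The TRAIL receptors TNFRSF10A and TNFRSF10B had ratios of -0.17 and -0.30. BAD, a BH3-only protein, had 116 and 230 counts under imatinib (1.10, 0.78 to 1.44) but 99 and 67 without (-0.43, -0.91 to 0.02). Its transcript has a GC content of 66.3%, and with the GC trend removed its ratio was 0.86. BOK had 60 and 25 counts (-1.08), and BCL2L11, which encodes the BH3-only protein BIM, had 0.32 in the treated and 0.28 in the untreated pair. Of 18 pro-apoptotic genes measured 2 were 2-fold higher and 1 lower, beside 1.32% and 1.51% of all genes. The lower member, BOK, reached 1 CPM only in the scramble libraries, so it passed the filter through the side where it was high. The list's median was 0.18, beside 0.02 over all genes. Of the anti-apoptotic genes BCL2 had 5.14 and 2.84 CPM under imatinib (-0.84, -1.24 to -0.48) and 3.89 and 3.78 without (-0.04), BCL2L1, which encodes BCL-XL, 97.5 and 132 CPM (0.44, 0.37 to 0.50) beside 88.1 and 81.9 (-0.11), and MCL1 -0.15. BCR and ABL1, the parts of the fusion gene, had ratios of 0.11 and 0.06. Of 33 genes of BCR-ABL signalling 0 were 2-fold changed, beside 2.83% of all genes. The 1 at 1.5-fold lower, beside 4.69% of all genes, was LYN, a SRC-family kinase (43350 and 24784 counts, -0.68). It lies in the stretch of chromosome 8 described below.

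Of the 17 listed ABC transporters that passed the filter, a family that includes drug pumps, 14 were below 0, beside 6192 of all 13296. ABCA3 (-0.70) and ABCA5 (-0.63) were the 2 lower by 1.5-fold or more, beside 4.69% of all genes. The median was -0.20 under imatinib and -0.19 without, beside 0.02 and 0.00 over all genes. ABCC4, ABCB10 and ABCC1 had ratios of -0.52, -0.50 and -0.03. ABCC2 had 90 and 69 counts (-0.25, -0.73 to 0.21), an interval that holds 0. ABCB1, the multidrug pump, was below the filter, with 13 counts in scramble and 0 in knockdown cells under imatinib and 11 and 4 without, and ABCG2 had 1 count in each treated library. ABCA9, an ABC transporter that the list does not hold and that was singled out after its values were seen, had 45 and 252 counts under imatinib (2.55, 2.15 to 3.10) and 35 and 194 without (2.52).

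Erythroid genes showed no common direction. LMO2, a partner of TAL1 and GATA1 in erythroid transcription, had 45.4 and 26.3 CPM under imatinib (-0.79, -0.91 to -0.67) and 47.9 and 38.1 without (-0.33). GATA1 had 0.23, GATA2 0.48 and ZFPM1 0.45. Of 16 erythroid and megakaryocyte transcription factors 1 was 1.5-fold lower and 0 higher, beside 4.69% and 5.26% of all genes. SLC4A1, the anion exchanger of red cells, was 2-fold lower (136 and 53 counts, -1.21), while HBG1 and HBG2, the fetal globins, had ratios of -0.25 each. HBA1 had 707 and 354 counts under imatinib (-0.87) and HBA2 669 and 734 (0.26). These alpha-globin genes are nearly identical in coding sequence, so the split between them is uncertain.

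All 13 mitochondrially encoded mRNAs had a ratio above 0, from 0.04 for MT-CO1 to 0.83 for MT-ATP8, with a median of 0.33 under imatinib and 0.12 without. Mitochondrially encoded genes took 8.28% of the counts in the knockdown library with imatinib, against 6.76% to 7.32% in the other 3. The 73 nuclear respiratory chain subunits had a median of 0.04 and no member at 1.5-fold. Interferon-stimulated genes had the highest list median under imatinib, 0.41, beside 0.31 without it, and 12 of 33 were measured. Beside 5.26% and 4.69% of all genes, 4 were 1.5-fold higher and 0 lower. They were TRIM22 (14 and 34 counts, 1.28), IRF7 (30 and 52, 0.87), IFI35 (132 and 200, 0.71) and IFITM2 (647 and 893, 0.59), and GBP2, an interferon-induced GTPase among the 20 highest but outside the list, had 5.43 and 14.9 CPM (1.44). Chaperones of the endoplasmic reticulum had a median of 0.11 with 20 of 25 above 0, led by CALR (29385 and 38956 counts, 0.53), and DNA replication genes 0.10 with 28 of 39 above 0, led by MCM6 (7090 and 8944, 0.46). The medians of these lists without imatinib were 0.13 and 0.12. Over all genes 7104 of 13296 were above 0 under imatinib. In all, 29 of 51 gene lists held no member at 2-fold and 13 held none at 1.5-fold.

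**Figure D3:**
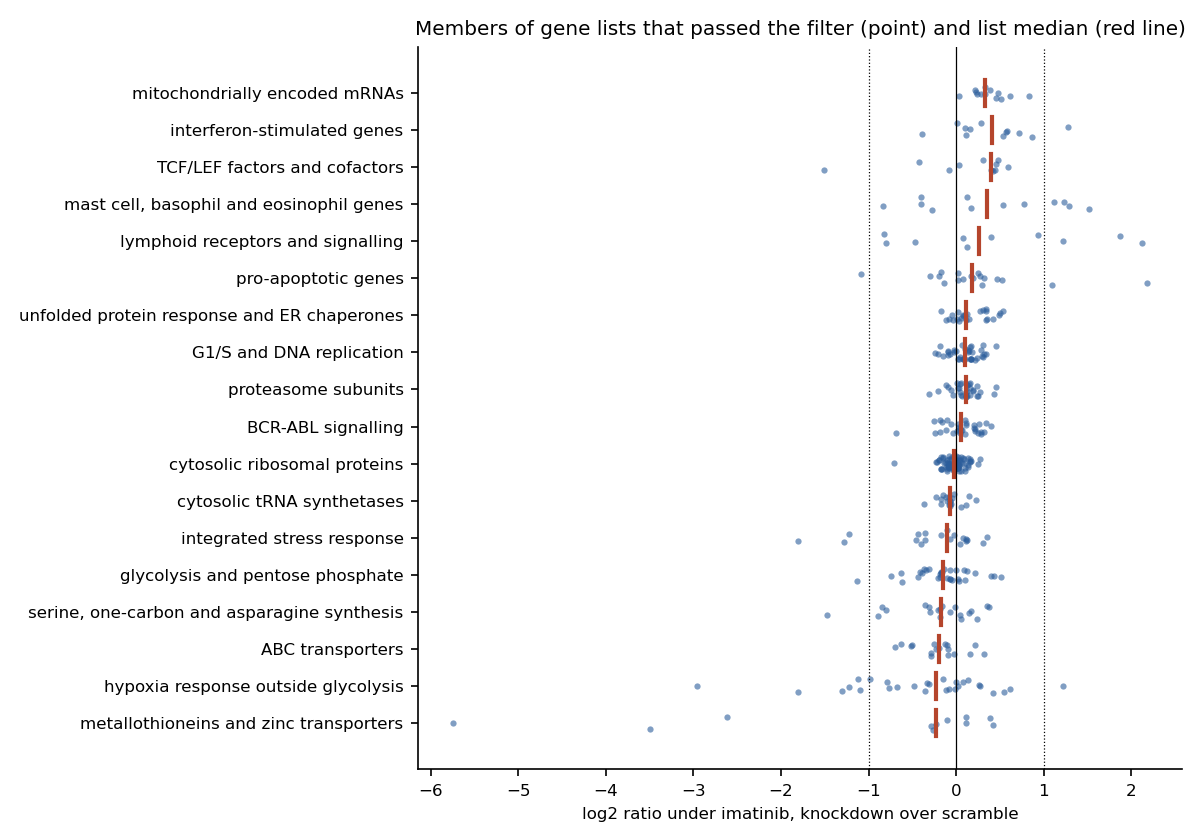
Log2 ratio under imatinib (x axis) of each member that passed the filter (points, spread vertically for sight) in 18 of the 51 lists, with the list median as a red line and dotted lines at 2-fold. List medians lie between -0.23 and 0.41, and single members such as MT1G, whose position at the far left depends on the prior count because its knockdown count is 0, lie far outside.

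A stretch of chromosome 8 was lower as a block. Over a rolling window of 21 neighbouring genes at 5 CPM or more, the median ratio passed 0.3 in size from PCMTD1 to SDCBP, between 51817575 and 58582860 (GRCh38). Of the 19 genes there 18 were below 0, with a median of -0.63 under imatinib and -0.57 without, and a range from -1.17 for the long noncoding RNA LINC01602 to 0.04 for SDCBP. The stretch holds several genes that led the lists above. LYN had -0.68, RPS20, a ribosomal protein of the small subunit, had 109842 and 61580 counts (-0.71) and was the 1 of 78 cytosolic ribosomal protein genes past 1.5-fold, and RB1CC1, which starts autophagosome formation, had -0.63. PLAG1, a zinc-finger factor, had -0.90. With the GC trend removed the stretch kept a median of -0.60.

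Of genes of other annotated types, those highest at 5 CPM or more were RP13-1032I1.7 (3.37 and 7.55 CPM, 1.15), the antisense transcript MAP3K14-AS1 (3.43 and 6.99 CPM, 1.01), LINC00847 (0.84), RP11-439A17.9 (0.80), LINC01278 (0.68) and NOP14-AS1 (0.67). The lowest was LINC01602 (18.6 and 8.22 CPM, -1.17), and among the 6 lowest were the pseudogenes TCEA1P2 (-0.78) and ADCY10P1 (-0.76), LINC01088 (-0.76) and AL133243.1 (-0.76). TCEA1P2 is a copy of TCEA1, which lies in the chromosome 8 stretch with a ratio of -0.71, so reads may be shared. MAP3K14-AS1 and RP13-1032I1.7 had ratios of -0.27 and -0.08 without imatinib. Antisense genes are uncertain because no source used here states how the counting treated strand.

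The treated and untreated pairs were then set side by side gene by gene. Of the 175 genes 2-fold higher under imatinib 52 were 2-fold higher without it, which is 29.7% of the treated and 42.3% of the 123 untreated genes, and 133 had the same sign. Of the 201 lower genes 75 were 2-fold lower without it, 37.3% of these and 32.2% of 233, and 170 had the same sign. Over all 13296 genes 0.925% were 2-fold higher and 1.75% were 2-fold lower without imatinib. The same-sign counts have no such share beside them. At 5 CPM or more in both pairs the shared counts were 13 of 22 higher and 19 of 29 lower genes, and every one of these 22 and 29 had the same sign. At 1.5-fold the untreated pair had 488 higher (3.67%) and 730 lower (5.49%), 9.16% in all.

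**Figure D4:**
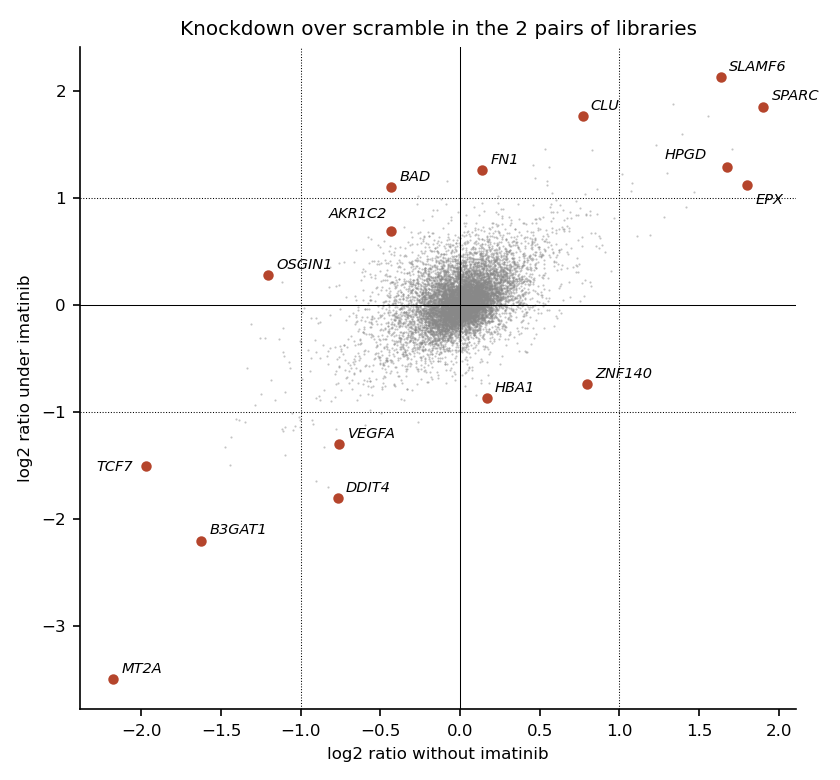
Log2 ratio of knockdown over scramble without imatinib (x axis) and under imatinib (y axis) for genes that averaged at least 5 CPM in the treated pair (grey points), with dotted lines at 2-fold and 16 genes named in the text marked in red. SLAMF6 and SPARC lie at the upper right and MT2A and B3GAT1 at the lower left, while FN1, BAD and AKR1C2 are high only under imatinib and ZNF140 lies on opposite sides of 0.

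Protein-coding genes that averaged at least 5 CPM in each pair were ranked by the treated minus the untreated ratio, a difference that rests on 4 single libraries and was not tested. At that level the highest was OSGIN1, a target of the oxidative stress factor NRF2, with 595 and 236 counts without imatinib and 746 and 831 under it, so -1.21 became 0.28. AKR1C2 and AKR1C3, aldo-keto reductases that NRF2 also induces and that are close copies of each other, had ratios of 0.69 and 0.40 under imatinib and -0.43 and -0.73 without. ZFP36, which destabilises mRNAs, had 0.73 and -0.35, PTPRJ, a receptor phosphatase, 0.94 and -0.09, and FN1 is given above. NINJ1, DNAJC17 and DHRSX had differences of 1.21, 1.17 and 1.17, and COG8 (ENSG00000272617.2) had 1.15. A second overlapping entry carries the symbol COG8 and had a difference of 0.38, so the split of reads between these entries is uncertain. At the same level the lowest was ZNF140, a zinc-finger factor, with 127 and 204 counts without and 233 and 127 under imatinib (0.80 and -0.74), followed by MT2A and DDIT4, whose ratios were negative in both pairs, by HBA1, by ATP1B2, a sodium pump subunit (0.10 and -0.85), and by DUSP19, FAM178B, GANC, LIPT1 and DPH6.

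The NRF2 list as a whole held 19 measured genes with a median of 0.05 under imatinib and -0.19 without, and the treated ratio was the higher in 15 of 19, beside 52.5% of all genes that passed. SRXN1, which restores oxidised peroxiredoxins, had 47 and 89 counts under imatinib and 18 and 18 without (1.01 and 0.11). FTL, the light chain of ferritin, had 0.51 and -0.18, NQO1 0.27 and -0.44, and SLC7A11, the cystine carrier, -0.44 and -1.11. AP-1 and immediate early genes had the treated ratio higher in 17 of 23, with medians of 0.15 and -0.12. These lists were looked at in this way after their values were seen, and part of the difference goes with GC content. The medians with the trend removed were -0.04 and -0.18 for the NRF2 list and 0.04 and -0.09 for AP-1.

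The ratio under imatinib moved with the GC content of the transcript. Over 10128 genes at 5 CPM or more, Spearman's rho across genes was 0.37 for the treated pair and -0.11 for the untreated pair, and for imatinib over none it was 0.68 in scramble and 0.76 in knockdown cells. Genes are not independent replicates, so these are descriptions with no p-value. With the genes put into 10 bins by GC content, the 1013 genes of lowest content had a median ratio of -0.07 and 34.1% were above 0. The 1013 of highest content had a median of 0.21 and 80.5% were above 0. In the highest bin 73 genes were 1.5-fold higher and 12 lower, and in the lowest bin 8 and 17. Transcript length went with the ratio more weakly (rho -0.18), with medians of 0.08 in the 2026 shortest and -0.04 in the 2026 longest. Runs of higher genes on chromosome 11 and chromosome 19, such as the 30 genes from TSEN34 to ZNF444 with a median ratio of 0.45 and a median GC content of 61.0%, had no like ratio without imatinib (median 0.04 for those 30 genes). With the trend removed no run of several genes was found on either, while the chromosome 8 stretch was found again.

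**Figure D5:**
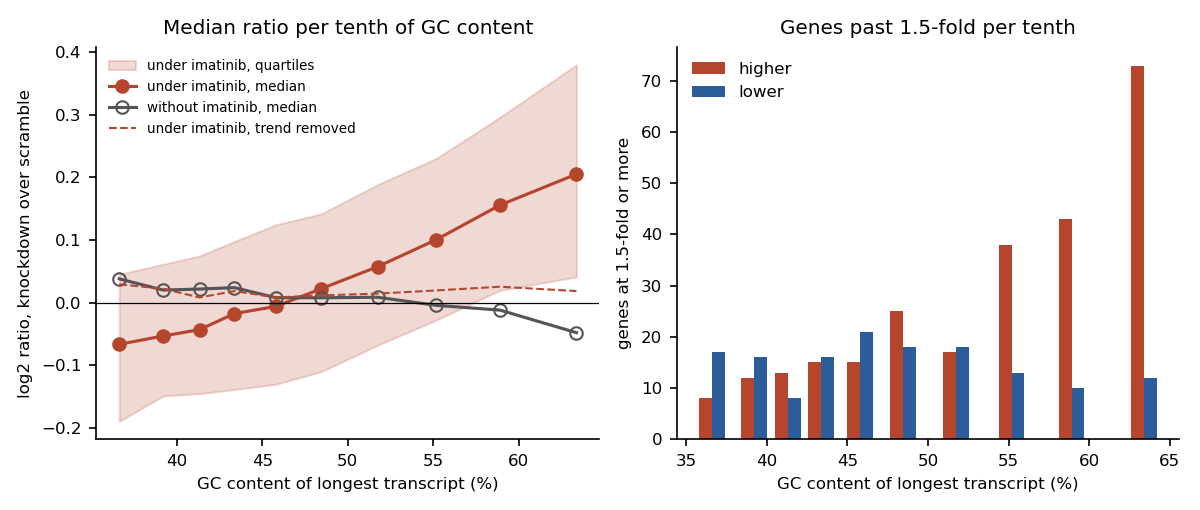
Left, median log2 ratio (y axis) of genes at 5 CPM and above in 10 bins of GC content (x axis, median GC of each bin) under imatinib with quartiles shaded, without imatinib (open circles) and under imatinib with the trend removed (dashed). Right, number of genes 1.5-fold higher and lower in each bin. The treated median climbs from -0.07 to 0.21 while the untreated median ends at -0.05.

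When a smooth trend over GC content and length was removed, 145 genes were 2-fold higher (1.09% of 13255) and 216 lower (1.63%), 2.72% in all. At 1.5-fold 569 were higher (4.29%) and 666 lower (5.02%), 9.32% in all, so the higher side shrank and the lower side grew. Of the 20 highest genes 18 stayed among the 20 highest, and of the 20 lowest 18 stayed among the 20 lowest. Of the 12 interferon-stimulated genes 2 rather than 4 were then past 1.5-fold, whereas the hypoxia list had 11 rather than 10 lower. The largest ratios moved little: MT2A from -3.50 to -3.59, SLAMF6 from 2.13 to 2.14, DDIT4 from -1.81 to -1.95 and TCF7 from -1.51 to -1.57. The source of the trend was not tested.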

How the data were processed

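Total RNA of 4 K562/G01 cultures was depleted of ribosomal RNA and made into strand-marking libraries, per the labels' protocols. The submitters' processing notes name FastQC, HISAT2, HTSeq 0.6.1 and GRCh38. No source used here gives the annotation release or the strand setting. Per the file headers, each gene has 1 count per library, whole and unnormalized, beside FPKM and log2 of 1 plus FPKM made by the authors. Ratios rest on the deposited count columns. The deposited FPKM columns were taken as a score, since 6 genes are negative there, and served 1 alternative. The log2 columns that the authors deposited were not used. Identifiers were matched to GENCODE release 29 (28329 of 28482).

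Counts were scaled by TMM (edgeR 4.0.16, R 4.3.3) over the 4 libraries, and log2 ratios used a prior count of 2 with exact binomial intervals. The calculation was checked on simulated Poisson counts without variation between libraries, as the intervals assume. That check cannot show how the intervals cover differences between real cultures. Per-library CPM intervals are exact Poisson. The GC and length trend was a smooth fit (mgcv 1.9.3) on genes averaging at least 5 CPM. Promoters came from RefSeq (GRCh38.p14).

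The members and lists were chosen with earlier results of these data known. Named genes are TCF7; the 20 highest and 20 lowest protein-coding genes and 6 each of other types at 5 CPM; list members at 2-fold (up to 6) or else the 4 with the largest change; the 10 highest and 10 lowest differences between pairs; genes of neighbour runs; and a set of Wnt, drug pump, survival and erythroid genes. Other list members were named after their values were seen. Some genes are not reported here. Alternatives were DESeq2 1.42.0 size factors, total counts, upper quartile, TMM without mitochondrial genes, other filters, a prior count of 0.5, log2 FPKM plus 0.1, thinned counts, the trend removed and a fold limit of 1.5.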

Additional observations from a re-analysis of the deposited data

Results flagged for a closer look

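For 24 of 226 named genes the ratio under imatinib and the ratio without it lay on opposite sides of 0, with both counting intervals off 0. That is 10.6% of the named genes, a set that includes genes named for their difference between the pairs, beside 839 of all 13296 genes that passed (6.31%). Each pair is 1 library against 1 library, so the difference between the pairs was not tested. The values below are the treated minus the untreated log2 ratio.

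The treated ratio was the higher for 17 genes. OSGIN1 had a difference of 1.48, NINJ1 1.21, DNAJC17 1.17, DHRSX 1.17, COG8 (ENSG00000272617.2, which overlaps another entry of that symbol) 1.15, AKR1C3 1.13, AKR1C2 1.12 and ZFP36 1.08. Smaller differences were found for ZFPM1, a cofactor of GATA1 (0.80), NFKBIE, an inhibitor of NF-kB (0.79), and FTL (0.68). The apoptosis inhibitor BCL2L1 had 0.54, the kinase MAP2K2 0.54, the adaptor GAB2 0.50 and the ribosome biogenesis gene RRP9 0.48. BCR and ABL1 had 0.21 and 0.13, small values in genes with at least 5021 counts in every library.

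The treated ratio was the lower for 7 genes. ZNF140 had a difference of -1.54 and GANC, a glucosidase, -0.87. HSPE1, the mitochondrial chaperonin subunit, had -0.72 and ETV5, a transcription factor downstream of ERK, -0.65. The lysyl-tRNA synthetase KARS had -0.31, the kinesin CENPE -0.29 and the ribosomal protein RPLP2 -0.28. The treated ratio moved with GC content (rho 0.37) and the untreated ratio less and in the other direction (rho -0.11). The part of this in the differences was not tested.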

How the results depend on the processing

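The counts of genes at 2-fold or more higher (175) and genes at 2-fold or more lower (201) depended on the level allowed in. They were 2009 and 1933 with no filter, 29 and 35 with a filter at 5 CPM, and 700 and 623 at a fold limit of 1.5. With log2 of deposited FPKM plus 0.1 they were 107 and 147. The other scalings, a prior count of 0.5, thinning and removal of the trend gave 145 to 188 higher and 202 to 216 lower. The log2 ratio TCF7 ran from -1.57 to -1.33 and Spearman's rho with GC content from 0.29 to 0.38, apart from the fit that removes the trend. Of 2226 alternative values for 226 named genes 2143 stayed within the counting interval of the reported ratio and 83 did not, and no gene past 2-fold changed sign. The other filters do not alter the ratio of a gene, so their values among the 2143 lay within the interval by construction. No scaling shifted the median of all genes by more than 0.04 in size (upper quartile, -0.04). No paired analysis was possible because the treated comparison is 1 library against 1 and comes from no test. A fit over both pairs, with imatinib as a block, would answer another comparison and was not run. No library could be left out of the treated pair. With 1 library a side the depth limits genes of low level most: below a mean of 5 CPM the median counting interval was 1.03 wide on the log2 scale, against 0.22 above it.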

Other observations

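Genes below a mean of 5 CPM held further large ratios, and the ones given here were chosen after their values were seen. The whole counting interval lay past 2-fold for 31 higher and 52 lower genes of this kind. IL1RAP, the partner chain of the receptor IL1RL1 and a surface marker studied in chronic myeloid leukemia, had 85 and 11 counts in scramble and knockdown cells under imatinib and 115 and 46 without (-2.63 and -1.17), while IL1RL1 was higher in both knockdown libraries. TLR4, the endotoxin receptor, had 75 and 13 counts under imatinib (-2.24). ERFE, the erythroid hormone that lowers hepcidin, had 43 and 5 counts under imatinib and 40 and 4 without (-2.58 and -2.72). The adhesion scaffolds TNS4 and MAGI1 had 252 and 15 counts (-3.78) and 146 and 8 counts (-3.77). LRRN3 had 54 and 0 counts under imatinib and 37 and 0 without. A gene near 0 in both libraries of a side passes the filter through the other side alone, as LRRN3 did.

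On the higher side, the long noncoding RNA LINC01986 had 0 counts in both scramble libraries and 49 and 35 in the knockdown libraries without and with imatinib. FAM198B had 4 and 81 counts under imatinib and 11 and 56 without (3.88 and 2.27), and the transporter ABCA9 had 45 and 252 under and 35 and 194 without (2.55 and 2.52). CD24, a surface glycoprotein, had 25 and 84 counts (1.79), SERPING1, the C1 inhibitor, 4 and 33 (2.64), and SIGLEC6 76 and 223 (1.65). COL1A1, a collagen chain, had 7 and 32 counts under imatinib and 5 and 42 without. SERPING1 is interferon-induced, as GBP2 is, and both had a smaller ratio without imatinib, 0.95 and 0.83. In the list of interferon-stimulated genes, which holds neither, the treated ratio was the higher in 6 of 12, beside 52.5% of all genes that passed. With the trend removed the medians of that list were 0.34 under imatinib and 0.32 without.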
